A study of Mus musculus with 6 samples.

Results

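DNA repair and damage checkpoint genes were examined in gene-corrected and uncorrected FAH-/--iPS cells, ES cells and the fibroblasts they came from. The list names 41 genes, chosen by gene symbol and sorted by the repair pathway in which each protein is best known. Of these, 38 had a probe on the array (75 probes in all), among 16593 genes and 25697 probes. Xrcc2, Fanca and Atr were not analysed here. On at least 1 of the 6 arrays 35 of the 38 were above background, and the probes of Nbn, Xrcc5 and Ercc2 were above background on none.

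Cells copy their DNA with errors and suffer breaks, adducts and lost bases, and separate pathways deal with each kind of lesion. Homologous recombination and end joining mend double-strand breaks, mismatch repair removes copying errors, base excision repair replaces damaged bases, nucleotide excision repair cuts out bulky adducts, and the Fanconi anemia proteins clear links between strands. The ATM and ATR kinases sense damage and act through the checkpoint kinases CHK1 and CHK2 to hold the cell cycle. Mouse ES cells divide fast, spend much of their cycle in S phase and rely heavily on recombination, whereas fibroblasts also use end joining and p53-driven arrest.

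The study reprogrammed fibroblasts of mice that lack fumarylacetoacetate hydrolase (FAH), the last enzyme of tyrosine breakdown, and then returned the gene to the iPS cells. Each cell type was hybridized once to an Illumina mouse-8 V2 BeadChip, so that 6 arrays were available. FAHgc-iPS line #7.1 and its sister line #7.2 are gene-corrected FAH-/- subclones of line #7 that received FAH through a lentivirus with a viral (SFFV) promoter. FAH-/--iPS cell lines #4 and #7 are male, lack FAH and were made with gamma-retroviral Oct4, Sox2, Klf4 and c-Myc, which the subclones carry too. Thus 3 of the 4 iPS cell lines descend from 1 derivation, and each is a clone. The iPS cells were derived on feeder layers of mouse embryonic fibroblasts, and whether feeder cells were removed before RNA extraction was not stated. OG2 ES cells carry an Oct4-GFP reporter and are not labelled as FAH-deficient. FAH-/- MEFs were fetal fibroblasts pooled over female and male fetuses, and are the starting population. Nothing shows that any line was arrayed from a second culture. The p-values here thus reflect only how far the 4 iPS arrays scattered, with limma drawing each gene's spread toward that of all genes tested. The lone MEF and ES arrays were assumed to vary like them.

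The median exported signal ran from 98.7 (line #7) to 124 (MEFs), and 45.8% to 48.6% of probes were above background. The single Fah probe gave log2 signals of 7.12 (line #7.1) and 7.00 (line #7.2) in gene-corrected lines and 7.12 (line #4) and 7.25 (line #7) in uncorrected lines, against 8.91 in ES cells and 6.30, not above background, in MEFs. The position of this probe within the transcript is unknown, both for the mutated allele and for the transferred FAH, so it does not check the labels. All 12 pluripotency markers were above background in each iPS line and in ES cells, against 3 of 12 in MEFs. All 13 measured fibroblast markers were above background in MEFs, against 8 to 9 of 13 in the iPS cell lines and 9 of 13 in ES cells. In bulk cultures, fewer cells of a type and less RNA per cell cannot be told apart.

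Promoters of 30 of the 38 members were found in a RefSeq table (GRCm38.p6) that spans 250 bases before to 50 bases after the transcription start. They were searched on both strands for TTTCCCGC, TTTGGCGC and TTTCGCGC, forms of the site bound by the E2F factors that switch on genes of S phase. At least 1 of these strings of letters occurred in 6 members, namely Brca2, Xrcc6, Msh6, Chek2, Msh3 and Fancg. Counted by promoter, matches were in 18.2% of the 33 promoters of members and in 1.84% of all 32851 promoters. The 6 promoters are printed because the first 4 belong to genes called above MEFs by 2-fold or more, and the other two to genes that were not. They are written 5′ to 3′ on the strand of the gene, with the match in capitals (GCGGGAAA is TTTCCCGC read from the opposite strand). They lie at chr5:150522371-150522670, plus strand (Brca2), chr15:82016119-82016418, plus strand (Xrcc6), chr17:87974800-87975099, plus strand (Msh6), chr5:110839733-110840032, plus strand (Chek2), chr13:92354954-92355253, minus strand (Msh3) and chr4:43010252-43010551, minus strand (Fancg).
Brca2: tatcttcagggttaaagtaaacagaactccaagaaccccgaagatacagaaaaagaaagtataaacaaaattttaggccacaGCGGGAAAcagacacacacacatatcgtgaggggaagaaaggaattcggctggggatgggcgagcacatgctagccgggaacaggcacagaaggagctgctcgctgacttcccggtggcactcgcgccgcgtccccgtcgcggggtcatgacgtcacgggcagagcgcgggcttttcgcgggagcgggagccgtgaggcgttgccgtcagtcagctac
Xrcc6: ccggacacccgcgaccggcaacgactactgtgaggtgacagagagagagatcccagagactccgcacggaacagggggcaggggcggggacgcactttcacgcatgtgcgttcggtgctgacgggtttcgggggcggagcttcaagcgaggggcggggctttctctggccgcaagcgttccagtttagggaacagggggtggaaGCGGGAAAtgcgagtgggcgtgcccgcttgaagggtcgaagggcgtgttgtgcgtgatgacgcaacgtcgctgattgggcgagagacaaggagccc
Msh6: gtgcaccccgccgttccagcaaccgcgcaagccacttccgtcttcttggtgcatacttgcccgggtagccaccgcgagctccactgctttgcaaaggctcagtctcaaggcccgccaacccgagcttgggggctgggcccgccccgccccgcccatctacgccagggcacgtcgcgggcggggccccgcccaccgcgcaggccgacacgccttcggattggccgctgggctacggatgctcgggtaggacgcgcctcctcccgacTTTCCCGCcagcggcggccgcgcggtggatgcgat
Chek2: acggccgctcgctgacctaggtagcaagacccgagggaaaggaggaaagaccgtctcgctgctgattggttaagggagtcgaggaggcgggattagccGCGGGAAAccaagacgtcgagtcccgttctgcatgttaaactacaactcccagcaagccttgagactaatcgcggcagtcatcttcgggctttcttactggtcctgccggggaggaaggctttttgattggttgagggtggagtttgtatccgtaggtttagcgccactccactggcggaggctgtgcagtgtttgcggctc
Msh3: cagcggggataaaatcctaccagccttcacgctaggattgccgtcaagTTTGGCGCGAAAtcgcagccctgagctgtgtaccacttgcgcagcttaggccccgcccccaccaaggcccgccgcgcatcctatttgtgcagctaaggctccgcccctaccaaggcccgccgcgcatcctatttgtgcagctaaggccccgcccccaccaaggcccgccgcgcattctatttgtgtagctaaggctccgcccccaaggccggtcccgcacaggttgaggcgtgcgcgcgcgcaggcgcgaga
Fancg: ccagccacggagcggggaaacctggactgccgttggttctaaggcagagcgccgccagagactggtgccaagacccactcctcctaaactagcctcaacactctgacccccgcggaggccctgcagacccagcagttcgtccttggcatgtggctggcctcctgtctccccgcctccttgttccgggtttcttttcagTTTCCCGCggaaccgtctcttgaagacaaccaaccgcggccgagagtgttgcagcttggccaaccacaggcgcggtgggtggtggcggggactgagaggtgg

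The match began 168 bases before the start in Brca2, 46 in Xrcc6, 152 in Chek2 and 52 in Fancg, and at base 16 of the transcript in Msh6. In Msh3, TTTGGCGC and TTTCGCGC in opposite orientations overlapped, beginning 202 and 198 bases before the start. Among members with a promoter in the table, 4 of 14 genes called higher than in MEFs held a match, 0 of 2 called lower and 2 of 14 not called. The letters CCAAT occurred in 17 of the 30 members, or 54.5% of their 33 promoters, and in 37.4% of all promoters. TTTGAA, the core of the cell cycle homology region, occurred in 0 of the 33 promoters of members and in 17.9% of all promoters. These are matches of exact letters in one window, not measured binding, and other forms of the E2F site were not searched. The Chek1 window, counted without a match, ended in gcgggaa, too short for a full GCGGGAAA.

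In the comparison with the starting fibroblasts, most repair genes were higher in the iPS cell lines, with Ung, Msh6, Blm, Parp1 and Rad54l farthest apart. Signals are log2 values after background correction and quantile normalization, differences are on the same scale, and adjusted p-values come from a limma fit over all genes tested. A gene is called where its adjusted p is under 0.05 and its difference is 2-fold or more. Of the 35 members tested, 15 were higher by at least 2-fold at an adjusted p under 0.05 (background over all 10508 genes tested 13.4%), and 2, Xpa and Mgmt, were lower (background 13.3%). With any fold, 23 were higher (background 28.3%) and 3 were lower (background 27.1%), the third being Ercc1. The median difference of the members was 0.80 on the log2 scale, against 0.03 over all genes, and 29 of the 35 differences were positive. Of the 35, 7 had no signal above background in MEFs and could pass the filter only through the iPS cell lines, so these shares are a description and not a test of the list. The calls on Brca1 and Chek1 rest on such probes. Set against the lowest detected signal, their folds are at least 1.97 and at least 1.72, under the 2-fold limit.

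**Figure D1:**
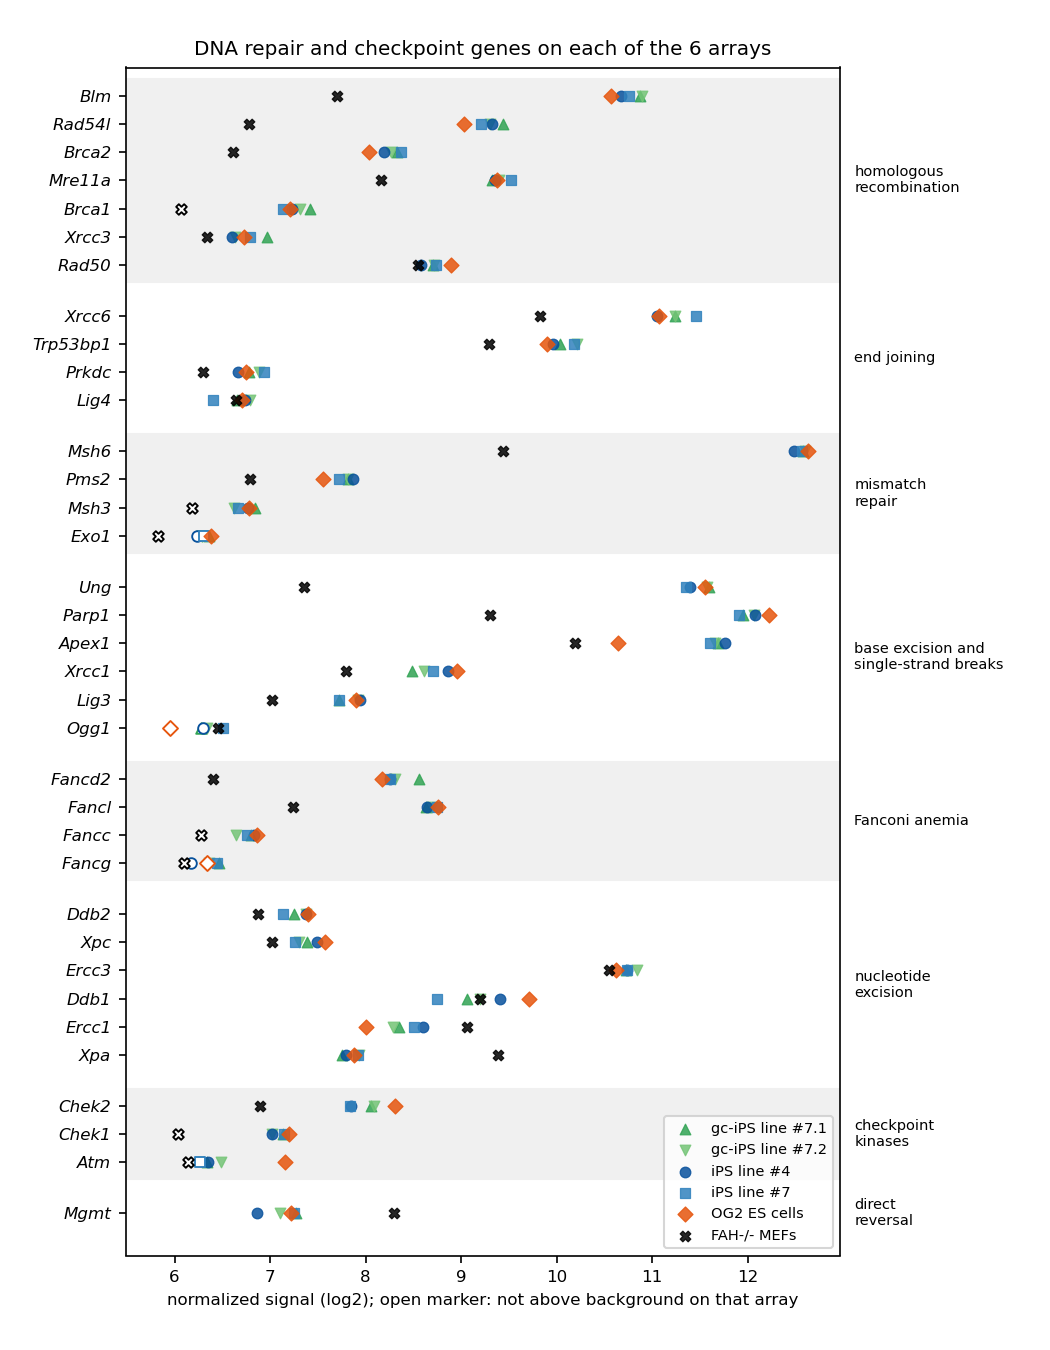
Log2 normalized signal (x axis) of each of the 35 repair genes above background on at least 1 array (rows, by pathway), with 1 marker for each array and open markers where the probe was not above background. The 4 iPS cell lines and the ES cells cluster to the right of the MEF cross in most rows and to its left for Xpa, Ercc1 and Mgmt.

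Homologous recombination genes were called higher in the iPS cell lines for 5 of the 7 tested (13.4% over all genes), and all 7 differences were positive. BLM is the RecQ helicase that unwinds recombination intermediates. Its gene gave log2 signals of 10.67 (line #4), 10.75 (line #7), 10.88 (line #7.1) and 10.90 (line #7.2), against 10.57 in ES cells and 7.70 in MEFs. The iPS lines thus lay together, far above the MEFs, with a difference of 3.10 (SE 0.15, adjusted p = 8.9e-09), or 8.58-fold. Rad54l, which encodes a DNA-dependent motor of strand exchange, gave 9.32 (line #4), 9.21 (line #7), 9.44 (line #7.1) and 9.31 (line #7.2), against 9.03 in ES cells and 6.78 in MEFs. No iPS line came near the MEF value, and the difference was 2.54 (SE 0.14, adjusted p = 3.7e-08), or 5.83-fold.

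Brca2, whose product acts on resected DNA ends, gave 8.19 (line #4), 8.37 (line #7), 8.33 (line #7.1) and 8.27 (line #7.2), against 8.03 in ES cells and 6.62 in MEFs. It rose by 1.67 (SE 0.14, adjusted p = 9.6e-07), or 3.19-fold. The nuclease gene Mre11a gave 9.36 (line #4), 9.53 (line #7), 9.33 (line #7.1) and 9.40 (line #7.2), against 9.37 in ES cells and 8.16 in MEFs, and the difference was 1.25 (SE 0.14, adjusted p = 1.3e-05). Its partner Rad50 did not move with it: 8.58 to 8.74 in the iPS lines, 8.89 in ES cells and 8.55 in MEFs, a difference of 0.13 (adjusted p = 0.46). The probes of Nbn, the remaining gene of that complex, were above background on no array, and the gene was not tested. Brca1, whose product acts upstream of BRCA2, gave 7.22 (line #4), 7.13 (line #7), 7.42 (line #7.1) and 7.32 (line #7.2), against 7.21 in ES cells and 6.06, not above background, in MEFs. The measured difference was 1.21 (SE 0.15, adjusted p = 2.6e-05). Xrcc3, also of this pathway, was not called (0.41, SE 0.16, adjusted p = 0.052).

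Of the 4 end-joining genes tested, only Xrcc6 was called higher (13.4% over all genes). It encodes Ku70, which caps broken ends, and gave 11.05 (line #4), 11.46 (line #7), 11.24 (line #7.1) and 11.24 (line #7.2), against 11.07 in ES cells and 9.83 in MEFs. The iPS lines spanned more for this gene than for most, yet all 4 lay above the MEFs, by 1.42 on average (SE 0.17, adjusted p = 1.4e-05), or 2.68-fold. Trp53bp1, whose product shields ends from resection, gave 9.96 (line #4), 10.19 (line #7), 10.03 (line #7.1) and 10.22 (line #7.2), against 9.90 in ES cells and 9.29 in MEFs. Its rise was under 2-fold (0.81, SE 0.15, adjusted p = 0.00065), as was that of Prkdc, the DNA-dependent kinase (0.52, SE 0.15, adjusted p = 0.011). Lig4, the ligase of this pathway, differed by 0.00 (SE 0.17, adjusted p = 1.0).

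Mismatch repair held one of the farthest differences on the list. Msh6, whose product recognises single mismatches, gave 12.49 (line #4), 12.57 (line #7), 12.58 (line #7.1) and 12.60 (line #7.2), against 12.63 in ES cells and 9.44 in MEFs. The 4 lines agreed within 0.05 (SD, n = 4), and stood 3.12 above the MEFs (SE 0.14, adjusted p = 5.1e-09 by limma), or 8.67-fold. The gene of the endonuclease subunit PMS2 gave 7.87 (line #4), 7.72 (line #7), 7.82 (line #7.1) and 7.82 (line #7.2), against 7.55 in ES cells and 6.79 in MEFs. Its difference of 1.01 (SE 0.14, adjusted p = 5.8e-05) sat on the 2-fold limit and fell to 0.99 without line #4. Msh3, whose product recognises larger loops, rose by under 2-fold (0.55, adjusted p = 0.0070), or at least 1.35-fold, as it was not above background in MEFs. The exonuclease gene Exo1 gave 0.47 (adjusted p = 0.012), or at least 1-fold. Its probe was above background only in line #7.1 and in ES cells, and the mean of its probes gave 0.17 (adjusted p = 0.24).

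Among base excision and single-strand break repair genes, 3 of 6 were called higher (13.4% over all genes). Ung, the glycosylase gene that removes uracil from DNA, gave 11.40 (line #4), 11.36 (line #7), 11.60 (line #7.1) and 11.58 (line #7.2), against 11.55 in ES cells and 7.35 in MEFs. This was the farthest separation among the 35 members, 4.13 (SE 0.15, adjusted p = 1.3e-09), or 17.5-fold. The other Ung probes were also positive but smaller, at 2.27, 0.60 and 0.37, and the mean of all 4 probes gave 1.84, still called. PARP1 senses strand breaks and marks them with poly(ADP-ribose). Parp1 gave 12.08 (line #4), 11.91 (line #7), 11.95 (line #7.1) and 12.06 (line #7.2), against 12.23 in ES cells and 9.30 in MEFs, a difference of 2.70 (SE 0.14, adjusted p = 2e-08), or 6.5-fold.

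Apex1, the endonuclease gene that cuts at lost bases, gave 11.76 (line #4), 11.61 (line #7), 11.69 (line #7.1) and 11.66 (line #7.2), against 10.64 in ES cells and 10.19 in MEFs. The iPS lines were above both other cell types here, and the difference from MEFs was 1.49 (SE 0.14, adjusted p = 2.3e-06), or 2.8-fold. Xrcc1, the scaffold of single-strand break repair, and its ligase partner Lig3 rose by under 2-fold (0.87, adjusted p = 0.00059, and 0.80, adjusted p = 0.00068). Ogg1, which removes oxidised guanine, differed by -0.10 (adjusted p = 0.58), with values between 6.27 and 6.50 in the iPS lines and 6.46 in MEFs, close to the limit of detection.

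Of the Fanconi anemia genes, 2 of 4 were called higher (13.4% over all genes). Fancd2, which is ubiquitinated when forks stall at crosslinks, gave 8.26 (line #4), 8.25 (line #7), 8.56 (line #7.1) and 8.31 (line #7.2), against 8.17 in ES cells and 6.41 in MEFs. It rose by 1.94 (SE 0.16, adjusted p = 7.2e-07), or 3.83-fold. Fancl, the ubiquitin ligase of the core complex, gave 8.65 (line #4), 8.75 (line #7), 8.63 (line #7.1) and 8.70 (line #7.2), against 8.76 in ES cells and 7.24 in MEFs. The 4 lines were within 0.12 of each other and 1.44 above the MEFs (SE 0.14, adjusted p = 2.8e-06). The core complex gene Fancc rose by under 2-fold (0.48, adjusted p = 0.012, at least 1.38-fold), and Fancg was not called (0.26, adjusted p = 0.18). Neither was above background in MEFs.

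All 3 checkpoint kinases tested had positive differences, and 2 were called higher (13.4% over all genes). Chek2 gave 7.85 (line #4), 7.84 (line #7), 8.05 (line #7.1) and 8.09 (line #7.2), against 8.31 in ES cells and 6.89 in MEFs, and was 1.06 higher (SE 0.15, adjusted p = 8.6e-05). The gene of CHK1, which restrains replication origins and entry into mitosis, gave 7.03 (line #4), 7.14 (line #7), 7.13 (line #7.1) and 7.02 (line #7.2), against 7.20 in ES cells and 6.03, not above background, in MEFs. All 4 lines were higher, by 1.05 (SE 0.14, adjusted p = 4.4e-05). Atm was not called (0.22, SE 0.14, adjusted p = 0.22), with a detected probe in 3 of the 4 lines, line #7 being the exception, and none in MEFs.

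Of the 6 nucleotide excision repair genes tested, 0 were called higher and 1 lower, where 13.4% and 13.3% of all genes were. Their median difference was 0.06, against 0.80 over all members. Of 8 tested genes of this pathway outside the list, 3 were called higher and 0 lower, with a median difference of 0.58. With any fold, 5 of these 8 were higher (28.3% over all genes) and 2 were lower (27.1%). The low median thus describes the listed genes and was not shared by these 8. Xpa, the damage-verifying protein's gene, gave 7.80 (line #4), 7.92 (line #7), 7.75 (line #7.1) and 7.93 (line #7.2), against 7.88 in ES cells and 9.38 in MEFs. All 4 lines and the ES cells lay far below the MEFs, and the difference from the iPS lines was -1.53 (SE 0.14, adjusted p = 2.3e-06), or 2.89-fold lower. Ercc1, partner of the XPF nuclease, gave 8.60 (line #4), 8.51 (line #7), 8.35 (line #7.1) and 8.29 (line #7.2), against 8.01 in ES cells and 9.07 in MEFs. It fell by under 2-fold (-0.63, SE 0.16, adjusted p = 0.0043). The damage-sensing gene Ddb2 rose slightly (0.41, adjusted p = 0.033), while Xpc, Ercc3 and Ddb1 differed by 0.34, 0.22 and -0.09 with adjusted p of 0.067, 0.21 and 0.73.

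Mgmt, the suicide enzyme that strips methyl groups from guanine, was the only direct reversal gene on the list. It gave 6.87 (line #4), 7.25 (line #7), 7.27 (line #7.1) and 7.11 (line #7.2), against 7.21 in ES cells and 8.30 in MEFs. The iPS cell lines were lower by 2.26-fold (-1.18, SE 0.17, adjusted p = 8.9e-05).

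**Figure D2:**
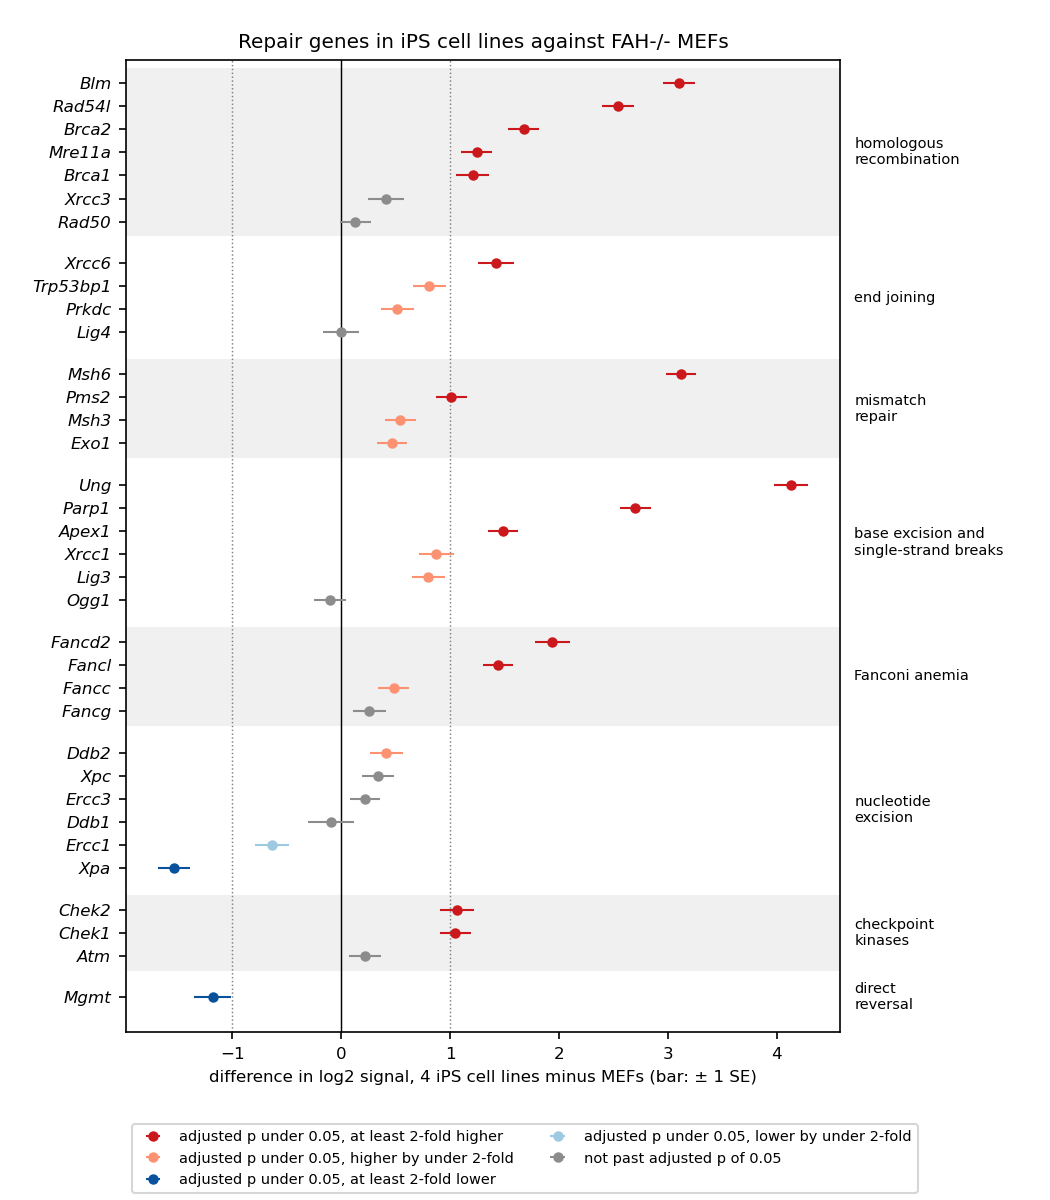
Difference in log2 signal between the 4 iPS cell lines and the MEF array (x axis, bars ± 1 SE from limma) for 35 repair genes by pathway, coloured by call, with dotted lines at 2-fold. Calls to the right reach 4.13 (Ung), and the called genes on the left are Xpa at -1.53 and Mgmt at -1.18.

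Genes with several probes allowed a check on these differences. Among the 20 tested members with more than 1 probe, the probe with the highest mean signal stood for the gene. Both Msh6 probes gave 3.12 and 3.06, and the 2 Apex1 probes 1.49 and 1.72. Parp1 probes gave 2.70, 2.88 and 1.93, and those of Xrcc6 1.42, 1.61 and 1.18. Probes of Blm disagreed: 3.10 and 2.80 on those above background, 0.02 and 0.00 on 2 that were above background on no array. For Chek1, the second detected probe gave 0.41 against 1.05, and for Mre11a the others gave 1.06 and 0.39 against 1.25. Averaging all probes took Chek1, Chek2 and Mre11a below 2-fold (0.46, 0.91 and 0.90).

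**Figure D3:**
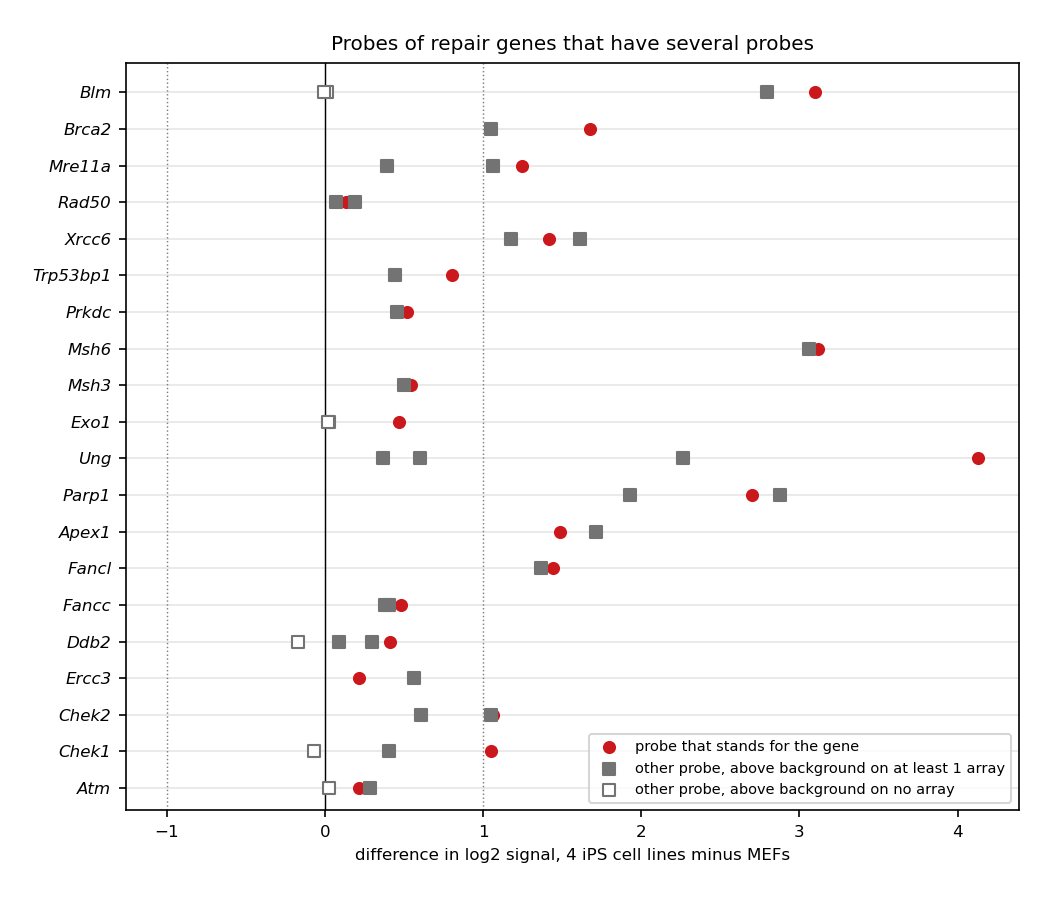
Difference in log2 signal between the 4 iPS cell lines and MEFs (x axis) for each probe of the 20 tested repair genes with more than 1 probe, red for the probe that stands for the gene and grey for the others, open where above background on no array. Msh6 probes coincide near 3.1, whereas the 4 Ung probes spread between 0.37 and 4.13.

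The other repair genes, listed by the same pathways but outside the 41, were counted alongside. Of 84, 69 had a probe and 60 were tested, with 22 called higher (13.4% over all genes) and 0 lower (13.3%), 38 higher (28.3%) and 6 lower (27.1%) with any fold, and a median difference of 0.66. The 6 farthest apart were Rpa2, a subunit of the single-strand binding protein, at 2.63, Timeless at 2.53, the ligase gene Lig1 at 2.46, the flap nuclease gene Fen1 at 2.45, Rad54b at 2.31 and Clspn, which couples ATR to CHK1, at 2.17, all with adjusted p between 3.4e-08 and 6.7e-07. Of 18 tested in a list of 23 genes driven by p53, 2 were called higher (13.4% over all genes) and 4 lower (13.3%), with a median of -0.30. With any fold, 5 of the 18 were higher (28.3%) and 8 were lower (27.1%), so the list moved in both directions. Fas, the death receptor gene, was lower by 2.82 on the log2 scale in the iPS cell lines (-2.82, SE 0.17, adjusted p = 7.6e-08) and Cdkn1a, which encodes the p21 inhibitor of cyclin-dependent kinases, gave -1.69 (SE 0.17, adjusted p = 3.2e-06). Phlda3 and Ccng1 gave -1.52 and -1.17 (adjusted p = 2.2e-06 and 1.7e-05). Pmaip1, which encodes the death-promoting protein NOXA, and Sesn2 were higher, at 1.18 and 1.01 (adjusted p = 4.3e-05 and 0.00088), but without background correction both were under 2-fold (0.93 and 0.85), as was Sesn2 under 6 other settings.

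Genes of dividing cells were also higher. Of 17 tested genes on the proliferation list, 14 were called higher (13.4% over all genes) and 0 lower (13.3%) than in MEFs. Their median difference was 2.43. Summed over the 18 genes with a probe, the signal was 33600 to 37800 in the iPS cell lines and 31900 in ES cells, against 6700 in MEFs. The summed signal of the 13 fibroblast markers was 3240 to 4090 in the iPS cell lines and 3050 in ES cells, against 64700 in MEFs. The part of division rate, or of residual fibroblasts, in the differences of repair genes was not tested.

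In the comparison with OG2 ES cells, which asks how far the iPS cell lines differ from blastocyst-derived pluripotent cells, 1 of 35 repair genes was called higher (background over 10024 genes 0.479%) and 0 lower (background 0.589%). With any fold, 1 was higher (background 2.12%) and 1 was lower (background 2.4%), and 6 had an unadjusted p under 0.05, against 1928 of the 10024 genes. The median difference was -0.06, against 0.02 over all genes. The one called gene was Apex1, whose 4 iPS lines between 11.61 and 11.76 stood above the 10.64 of the ES cells by 1.04 (SE 0.14, adjusted p = 0.0018). Its second probe gave 0.37, the mean of both gave 0.70 (adjusted p = 0.014), and with lines #4 and #7 alone the difference was 1.04 with an adjusted p of 0.063, so the call was lost in both settings.

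Atm encodes the kinase that opens the response to double-strand breaks. Its signals were 6.35 (line #4), 6.27 and not above background (line #7), 6.34 (line #7.1) and 6.48 (line #7.2), against 7.16 in ES cells. All 4 iPS lines were lower, by less than 2-fold (-0.80, SE 0.15, adjusted p = 0.010). A second Atm probe gave -0.36, and the third was above background on no array. The adjusted p was above 0.05 with the mean of all probes (-0.35, adjusted p = 0.13), with lines #4 and #7 alone (-0.85, adjusted p = 0.11) and with the background limit as a floor under the authors' values (-2.18, adjusted p = 0.055).

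Other members of each pathway were not called against ES cells. In homologous recombination the farthest were Rad54l (0.29, SE 0.15, adjusted p = 0.31) and Brca2 (0.26, SE 0.14, adjusted p = 0.36), and in end joining Trp53bp1 (0.20, SE 0.15, adjusted p = 0.53) and Xrcc6 (0.17, SE 0.17, adjusted p = 0.63). Mismatch repair ran between -0.08 (Exo1, SE 0.14, adjusted p = 0.80) and 0.25 (Pms2, SE 0.14, adjusted p = 0.37), and the Fanconi anemia genes between -0.11 (Fancc, SE 0.14, adjusted p = 0.75) and 0.17 (Fancd2, SE 0.16, adjusted p = 0.61). Ogg1 differed by 0.41 (SE 0.15, adjusted p = 0.15), or at least 1-fold, as it was not above background in ES cells. Its probe was above background in only 2 of the 4 iPS lines. In nucleotide excision repair, Ddb1, the adaptor of a ubiquitin ligase that marks damaged chromatin, gave 9.41 (line #4), 8.75 (line #7), 9.06 (line #7.1) and 9.20 (line #7.2), against 9.71 in ES cells. It varied more among the iPS lines than any other member, and the difference was -0.60 (SE 0.21, adjusted p = 0.13). Ercc1 was 0.43 higher (SE 0.16, adjusted p = 0.16), Chek2 differed by -0.35 (SE 0.16, adjusted p = 0.24) and Mgmt by -0.09 (SE 0.17, adjusted p = 0.83). These adjusted p-values do not show that the levels were equal.

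The other repair genes followed the same course against ES cells, with 0 of 60 called at 2-fold (0.479% higher and 0.589% lower over all genes). At an unadjusted p under 0.05 there were 9 (1928 of 10024 over all genes). With any fold 1 was lower (2.4% over all genes), the end-joining gene Xrcc4, by under 2-fold (-0.87, SE 0.18, adjusted p = 0.021). Of the 18 genes tested on the p53 list, 0 were called at 2-fold, where few of all genes were (0.479% higher, 0.589% lower). With any fold 1 was lower (2.4% over all genes), the damage-inducible gene Gadd45a, by under 2-fold (-0.76, SE 0.19, adjusted p = 0.042).

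**Figure D4:**
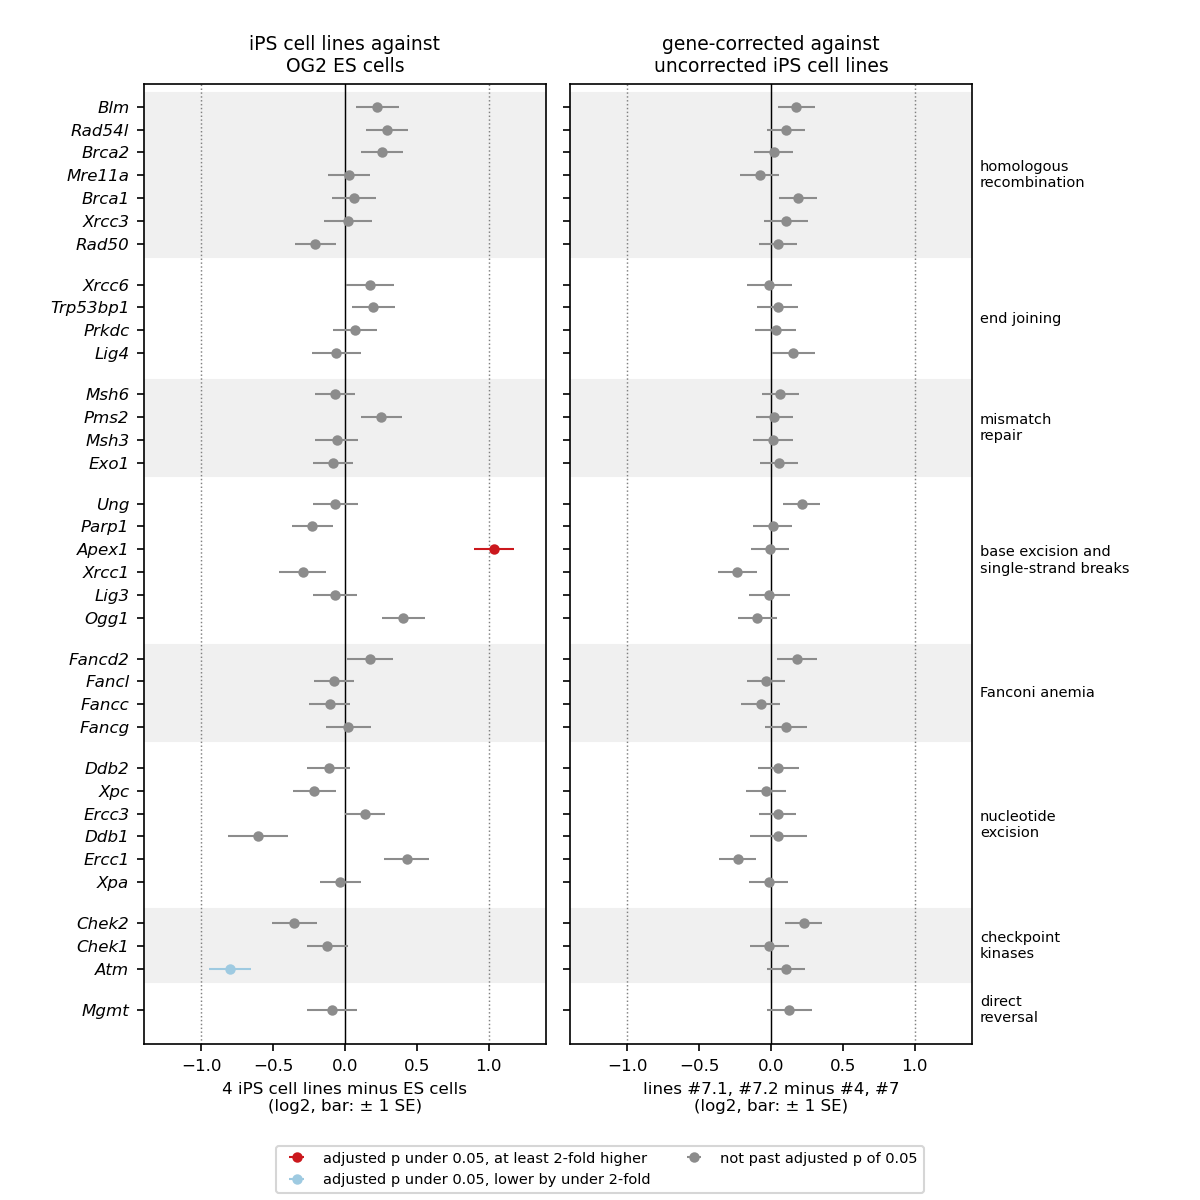
Differences in log2 signal with bars of ± 1 SE for 35 repair genes, the 4 iPS cell lines minus ES cells on the left and gene-corrected lines #7.1 and #7.2 minus lines #4 and #7 on the right, dotted lines marking 2-fold. Apex1 at 1.04 and Atm at -0.80 are the coloured points on the left, and every point on the right lies between -0.24 and 0.23.

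Gene correction was compared on the iPS cell lines alone, FAHgc-iPS lines #7.1 and #7.2 against FAH-/--iPS cell lines #4 and #7. No repair gene was called, 0 of 35 with any fold (background over 9792 genes 0%), and 0 of the 35 had an unadjusted p under 0.05, against 452 of the 9792 genes. Differences ran from -0.24 (Xrcc1, SE 0.14, adjusted p = 0.94) to 0.23 (Chek2, SE 0.13, adjusted p = 0.94), with a median of 0.05. Ercc1 gave -0.23 (SE 0.13), Ung 0.21 (SE 0.13), Brca1 0.19 (SE 0.13), Fancd2 0.18 (SE 0.14), Blm 0.17 (SE 0.13), Lig4 0.15 (SE 0.15), Mgmt 0.13 (SE 0.16), Fancg 0.10 (SE 0.14) and Atm 0.10 (SE 0.13), each with an adjusted p from limma between 0.94 and 0.96. Msh6 (0.06, SE 0.13), Exo1 (0.06, SE 0.13), Ddb2 (0.05, SE 0.14) and Trp53bp1 (0.05, SE 0.14) each had an adjusted p of 0.98. With 2 arrays a side and 2 residual degrees of freedom, and with line #4 from another derivation than the rest, small effects were not resolved, and the gene transfer and the subcloning cannot be told apart.

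Single pairs of arrays carry no test. Line #7.1 differed from line #7 by at least 1.5-fold in 0 of 35 repair genes, with extremes of -0.23 (Ogg1) and 0.32 (Ddb1), against 1.33% of all genes. For line #7.2 against line #7 it was 0 of 34, with extremes of -0.22 (Xrcc6) and 0.45 (Ddb1), against 0.442% of all genes. Line #4 was 1.5-fold or more above line #7 in 1 of 34, Ddb1, at 9.41 in line #4 against 8.75 in line #7, where 3.75% of all genes were that far apart. Line #7 had the lowest Ddb1 signal of the 4. The SD over the 4 iPS lines had a median of 0.10 for the 35 members, from 0.05 (Msh6) to 0.28 (Ddb1), against 0.13 for all 9792 genes. ES cells and MEFs, which share no derivation with each other, differed by at least 2-fold in 18 of 34 repair genes, against 29.9% of all genes. Of the 18, 15 were higher in ES cells, up to 4.20 (Ung), and 3 were lower, namely Xpa at -1.50, Mgmt at -1.09 and Ercc1 at -1.06. The ES cells and the iPS cell lines are set against the same MEF array, so this is not a second measurement of the fibroblasts.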

How the data were processed

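Total RNA of 6 cultures was amplified into labelled cRNA and hybridized to 1 Illumina mouse-8 V2 BeadChip each. The deposited files of single samples hold the exported BeadStudio signal intensity of each probe, with no background subtracted and no detection p-value. A series-wide deposited table gives intensity values that the authors had background-subtracted and normalized by cubic spline, with 6883 to 6894 values below 0 per array. Its BeadStudio version was not given in the sources read.

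Exported signals were passed through normexp (offset 50), quantile normalization and a log2 transform in limma 3.58.1 under R 4.3.3. A probe was above background where its signal exceeded the signal at which the authors' value is 0 by 2.326 noise SDs. Of the probes, 23978 name 1 gene and 1719 none in GEO's platform annotation, and 23962 were matched to a RefSeq gene table (GRCm38.p6). The probe with the highest mean signal stood for its gene, and genes entered a comparison if above background on any of its arrays. A limma model of 3 groups held the 4 iPS cell lines, ES cells and MEFs (3 residual degrees of freedom). It was fitted separately to the genes tested against MEFs and to those tested against ES cells. Another model held the gene-corrected and uncorrected lines (2 residual degrees of freedom). In each fit, limma moderated the variance of each gene toward that of all genes tested. P-values were adjusted by Benjamini-Hochberg over all genes tested. A call needed an adjusted p under 0.05 together with a 2-fold difference, and counts with any fold are given too. Where no array of a group was above background, the fold was computed from the lowest detected normalized signal and stands as a lower limit (at least N-fold).

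Members, other gene lists and tests were chosen with earlier results of these data known. All members are accounted for, and full values go to those called and to up to 2 per pathway with the largest difference. From the other repair genes and the p53 list up to 6 each were named by size of difference; Xrcc4 and Gadd45a are the leading genes against ES cells. Alternatives were median scaling, no background correction, other filters on dim probes, the mean of a gene's probes, the authors' values plus 50, those values floored at the background limit (added after the data were seen), each iPS line left out in turn, and lines #4 and #7 alone. Simulated arrays with known changes were used to test the steps. The number of arrays limits the precision, and the lone MEF and ES arrays cannot be left out.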

Additional observations from a re-analysis of the deposited data

Results flagged for a closer look

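Among the 4 iPS cell lines, 1 of 35 repair genes had an array that stood apart from the other 3. Ercc3, the helicase gene of TFIIH that opens DNA around an adduct, gave 10.84 in line #7.2, against 10.74 (line #4), 10.74 (line #7) and 10.73 (line #7.1). Its gap to the nearest line was 0.886 of the whole range, above Dixon's critical value for 4 samples, and the SD of the 4 lines was 0.06 on the log2 scale. Chance flags about 1 in 20 such groups.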

How the results depend on the processing

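Against MEFs, the 17 calls (15 higher, 2 lower) became 26 with any fold (23 and 3), 14 with median scaling, 13 without background correction, 14 with the mean of all probes, 17 with the authors' values plus 50, 22 when those values were raised to the background limit where below it, 16 to 17 without 1 iPS line and 15 with lines #4 and #7 alone. Median scaling took Mre11a (0.95), Pms2 (0.81) and Chek2 (0.84) below 2-fold, and omitting background correction did so for Brca1 (0.91), Pms2 (0.83), Chek1 (0.77) and Chek2 (0.89). With lines #4 and #7 alone, Chek2 (0.95) and Pms2 (0.9996) were below 2-fold. Median scaling also moved the split over all genes to 1050 higher and 1857 lower, against 1404 and 1401, and over the comparison with ES cells to 68 and 42, against 48 and 59. Its shift of the median over all genes was from 0.03 to -0.07 against MEFs, and ES cells minus MEFs went to a median of -0.21 over all genes, against 0.02.

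Against ES cells, the 1 call became 2 with any fold, 0 with the mean of all probes and 0 with lines #4 and #7 alone. With the authors' values plus 50, Apex1 (0.98) fell below 2-fold and Atm (-1.04, adjusted p = 0.018) passed it. Mgmt turned sign there with median scaling (0.0038, against -0.09). Of line #4 and line #7, 0 genes were 2-fold and 1 was 1.5-fold apart, and with median scaling line #7.2 was also 1.5-fold above line #7 for Ddb1 (0.66).

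For gene correction, the sign of small differences turned for Blm with the mean of all probes (-0.0262), and with 1 line left out the values ran between -0.0637 and 0.1605 for Trp53bp1, -0.0341 and 0.2415 for Fancg, -0.0652 and 0.3203 for Mgmt, -0.0131 and 0.3215 for Lig4, and -0.0694 and 0.1730 for Ddb2. Leaving out line #7 gave 29 calls over all genes (9 higher, 20 lower) and 0 of 35 repair genes. No paired analysis was possible because the groups share no replicate number that pairs their lines. Genes close to the 2-fold limit, such as Pms2, Chek1 and Chek2, changed their call under these settings while keeping their direction.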
